A study of Strongylocentrotus purpuratus with 4 samples.

Results

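The 150 genes described here had the highest ratio of their 72 hpf level to their 48 hpf level when all cells of the uninjected sea urchin libraries were summed (hpf, hours post fertilization). They were chosen by these measured values, as the top 150 among 8459 genes that had 200 or more UMIs when both libraries were added, of 32262 genes in the count tables. A UMI (unique molecular identifier) marks 1 captured transcript molecule. Levels are CPM (UMIs scaled to counts per 1e+06 UMIs of the same cells) and the ranking ratio is that of CPM + 1. Since this contrast chose the genes, all 72 over 48 hpf values below are a description and no test was made of them.

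The study dissociated embryos of the purple sea urchin Strongylocentrotus purpuratus and counted transcripts in single cells by droplet capture. The 48 hpf and 72 hpf libraries came from uninjected wild-type cultures from which the ectoderm, with its pigment cells, had been enriched, and each ran in its own sequencing lane. The control MO library came from whole gastrulae at 48 hpf that had been injected with a morpholino against a gene of another echinoderm, the sea star Patiria miniata, and it shared its lane with another morpholino library. With 1 library per condition, stage, lane and library cannot be told apart, and the control MO library differs from the uninjected 48 hpf library in injection, in enrichment and in lane at once.

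Between these stages the gastrula becomes a feeding pluteus larva. The aboral ectoderm, which makes the arylsulfatase ARS, flattens into an epithelium, the ciliary band and the apical organ form neurons, the gut divides into its compartments, skeletogenic cells extend the arm rods, and pigment cells spread within the ectoderm. Many products of differentiated cells are known to accumulate over this interval.

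Cells with 400 to 2500 genes were kept, which left 5170 cells with 15379620 UMIs at 48 hpf, 6666 cells with 14602157 UMIs at 72 hpf and 3323 cells with 9314829 UMIs in the control MO library. The median cell held 3063.5, 1487 and 2684 UMIs respectively, so a 72 hpf cell was the shallowest. Kept cells shared 14 barcodes between the uninjected libraries and 8 between each of them and the control MO library. The most abundant gene took 2.67% of UMIs at 48 hpf and 8.27% at 72 hpf, and over the 8459 genes the median ratio was 0.947. All intervals below are 95% intervals and cover counting error only.

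The ratios of the 150 genes ran from 4.31 to 118, with a median of 6.91. A ratio of 10 or more was found for 51 of them and of 50 or more for 5. Among all 8459 genes, 563 (6.66%) were at 2-fold or more, so the 150 are the upper end of a wider rise. The last genes taken were LOC105441784 (ratio 4.33), LOC581339 (4.31) and LOC105446022 (4.31), and the first left out were LOC588807 (4.30), LOC579771 (4.28) and LOC100888552 (4.27), so the boundary is not a gap in the data. Together the 150 genes held 0.238% of UMIs at 48 hpf, 1.92% at 72 hpf and 0.227% in the control MO library. Their median level was 4.19, 39.1 and 3.22 CPM in that order.

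Most of these genes carry only a LOC number in the count tables. Own symbols are given to gpb5 and gpa2, which encode the subunits of thyrostimulin in vertebrates, and to REJ5, of the family named for the sperm receptor for egg jelly. The RefSeq gene table of a later assembly adds prox1, a homeodomain transcription factor, for LOC576148. No role is given to the others. Of the 122 genes that matched 1 entry of that table, 9 (7.38%) were long non-coding RNAs, against 173 of 7296 matched genes that could enter (2.37%).

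**Figure D1:**
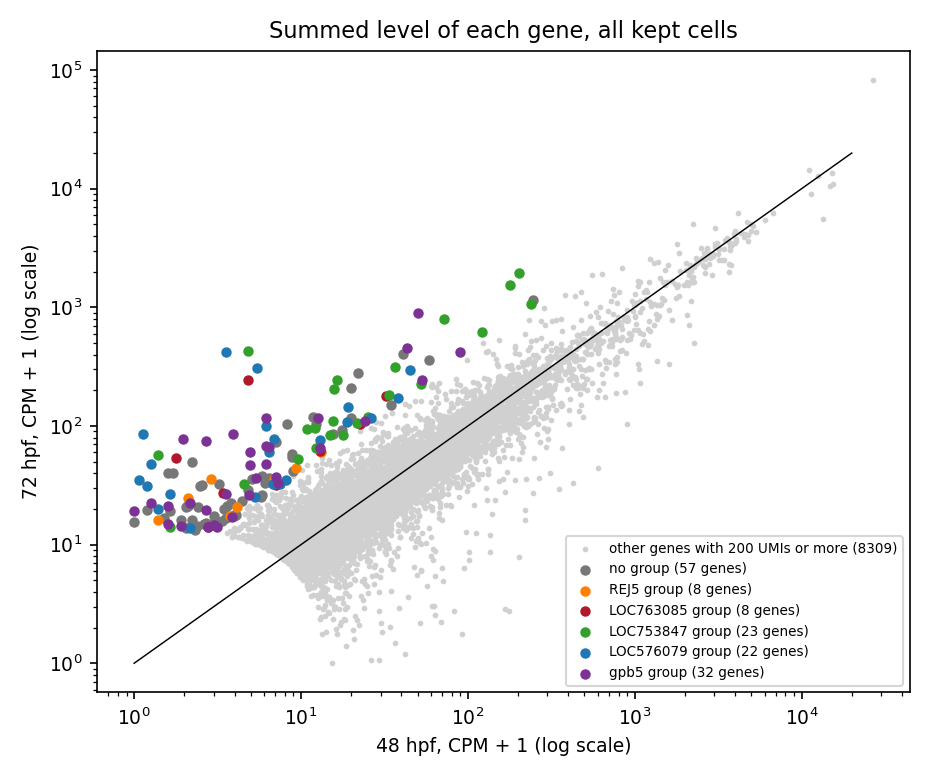
Level of each gene at 48 hpf (x axis) and 72 hpf (y axis), as CPM + 1 on log scales, summed over all kept cells. Grey points are the other 8309 genes with at least 200 UMIs, coloured points the 150 chosen genes by co-expression group, and the line marks equal levels; the chosen genes lie along the upper left edge, from near 0 to about 246 CPM at 48 hpf.

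The steepest ratios belonged to genes nearly absent at 48 hpf. LOC576079 was at 2.54 CPM at 48 hpf, 417 CPM at 72 hpf and 1.503 CPM in the control MO library, a ratio of 118. Its CPM ratio without the added 1 was 164 (interval 120 to 231). LOC579576 was at 3.84, 429 and 11.1 CPM in the same order (ratio 88.9). In these sums over all cells the 72 hpf library stood apart for both genes and both 48 hpf libraries were low.

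LOC576549 (ratio 75.7), LOC591003 (56.4) and LOC763085 (50.9) followed. LOC576549 had 2 UMIs at 48 hpf, 1234 at 72 hpf and 3 in the control MO library. With so few UMIs at 48 hpf its CPM ratio was loosely bounded, at 649.9 (interval 179.5 to 5372). LOC763085 was at 3.84, 245 and 3.97 CPM, and LOC591003 at 4.42, 305 and 2.04 CPM. The rest of the 15 highest were LOC578016, LOC100890505, LOC756286, LOC577387, LOC100890834, LOC752016, LOC578199, LOC586014, LOC105442356 and LOC105447310, with ratios from 40.7 down to 22.0. All but 1 of these 10 stayed below 2 CPM in the control MO library. The exception, LOC586014, was at 0.585 CPM at 48 hpf and 7.84 CPM with the control MO.

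LOC105436997 and LOC105438333 had no UMI at 48 hpf. Set against a limit of 3 UMIs in that library, they were at least 92.7-fold and at least 75.1-fold higher at 72 hpf, where they had 264 and 214 UMIs. LOC105438333 had no UMI in the control MO library either.

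The most abundant genes at 72 hpf had started from moderate levels. LOC753847 was at 201 CPM at 48 hpf, 1948 CPM at 72 hpf and 121 CPM with the control MO. LOC100892690 was at 177, 1533 and 102 CPM, and LOC577731 at 246, 1155 and 109.8 CPM. LOC579510 was at 237, 1060.0 and 275 CPM. LOC752246, the fifth, was at 49.0, 887 and 3.22 CPM. The ratio of control MO to 48 hpf was 0.605 for LOC753847, 0.581 for LOC100892690, 0.448 for LOC577731 and 1.16 for LOC579510, against 0.0844 for LOC752246.

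Cells were placed in 5 classes by marker UMIs. Pigment cells had at least 0.3% of their UMIs in pks1 (LOC588806), sult1c2 (LOC592500), fmo5-1 (LOC588371) and gcm, gut cells at least 0.3% in Endo16, GATAe and blimp1/krox, skeletogenic cells at least 0.5% in 10 spicule matrix, collagen and Alx1 symbols, and high-ARS cells at least 1% in ARS, each with 3 marker UMIs or more. The remaining cells are called other, and they are a remainder and not a cell type. At 48 hpf there were 480 pigment, 109 gut, 126 skeletogenic, 2133 high-ARS and 2322 other cells. At 72 hpf there were 690, 15, 40, 2297 and 3624, and with the control MO 205, 250, 118, 1243 and 1507. The thresholds were set on the distributions of these data and split a range. For high-ARS, 435 cells at 72 hpf lay within a factor of 1.25 above the threshold and 352 within that factor below it. At 48 hpf these counts were 164 and 140. ARS itself was at 28877.5 CPM in high-ARS cells at 48 hpf and 20969 CPM at 72 hpf. A cell whose ARS share fell below the threshold counts as other. The summed pigment markers were at 25510.3 CPM in pigment cells at 48 hpf and 8675 CPM at 72 hpf, when 52 cells lay just above the pigment threshold and 44 just below it, against 11 and 9 at 48 hpf. Cells past the thresholds of several classes numbered 37 at 48 hpf, 24 at 72 hpf and 11 with the control MO.

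The gain of the 150 genes was divided by class, as each class's contribution to the summed CPM at 72 hpf minus that at 48 hpf. Other cells gave 53.2% of the summed gain, high-ARS cells 42.8% and pigment cells 4.14%, while gut and skeletogenic cells gave -0.105% and -0.0695%. By gene, other cells gave over 50% of the gain for 96 genes, high-ARS cells for 37, pigment cells for 5 and no class for 12. Gut and skeletogenic cells were the main source for none of the 150, and together they held under 1% of the UMIs at 72 hpf.

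Within classes, genes with at least 20 UMIs there over both libraries were compared. All 150 reached this in other cells and 149 of them were at 2-fold or more, against 11% of all genes measured there. LOC581339 was the exception at 1.72-fold. In high-ARS cells 118 of 128 were at 2-fold or more (all genes 5.91%) and in pigment cells 73 of 80 (all genes 14.2%). Skeletogenic cells gave 16 of 21 (all genes 11.3%) and gut cells, with 15 cells at 72 hpf, 7 of 10 (all genes 13.2%). The genes below 20 UMIs numbered 22 in high-ARS, 70 in pigment, 129 in skeletogenic and 140 in gut cells. A gene could pass that minimum through its 72 hpf level alone and the same contrast chose the genes, so these counts say where the rise was measured and nothing more.

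Of the 79 genes measured in pigment, high-ARS and other cells alike, 66 were at 2-fold or more in all of them. No such share over all genes is given here for comparison. The part of free RNA in rises shared by several classes was not tested. LOC753847, LOC105442352, LOC579510 and LOC577731 were at 2-fold or more in every class. In the 15 gut cells at 72 hpf, LOC753847 had only 7 UMIs and LOC105442352 only 4. The gut CPM ratio of LOC105442352 had an interval of 0.775 to 9.31, so a rise there is not established. LOC753847 rose from 380 to 3487 CPM in high-ARS cells, from 29.95 to 706 CPM in other cells and from 74.1 to 552 CPM in pigment cells. A further 13 genes were at 2-fold or more in 4 classes, LOC752246 among them, whose 3 gut UMIs at 72 hpf were below the minimum.

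The class-specific order was led by few genes. In pigment cells the highest ratios were those of LOC576079 (105), LOC579576 (94.8), LOC574851 (78.4), LOC105438333 (63.6) and LOC105447310 (62.2). These ratios rest on 0 to 3 pigment-cell UMIs at 48 hpf. LOC574851 and LOC105438333 had 0 there and 68 and 55 at 72 hpf, so that against a limit of 3 UMIs they were at least 26.5-fold and at least 21.4-fold higher. At 72 hpf LOC574851 was at 77.4 CPM in pigment, 10.9 in high-ARS and 11.5 in other cells. In high-ARS cells LOC579576 (158), LOC578016 (79.7), LOC763085 (43.4), LOC100889865 (24.2) and LOC576079 (23.1) led. In other cells LOC579576 (152), LOC576079 (130), LOC576549 (126), LOC763085 (102) and LOC756286 (69.7) led. LOC579576 and LOC576079 were among the 5 highest in pigment, high-ARS and other cells alike, at different levels: LOC579576 reached 606 CPM in high-ARS and 274 CPM in other cells at 72 hpf, and LOC576079 reached 37.7 and 803 CPM.

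**Figure D2:**
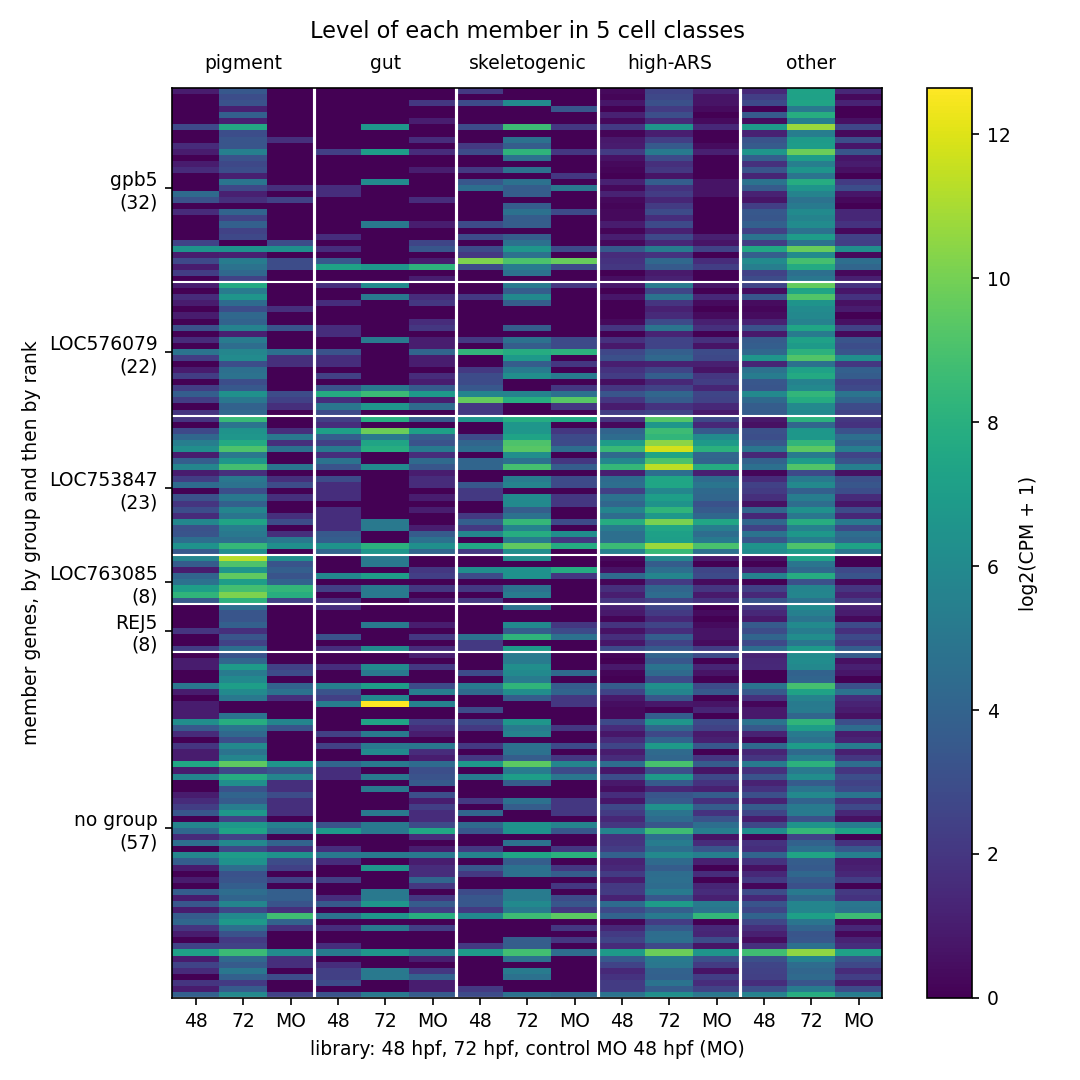
Level of each of the 150 genes, as log2(CPM + 1), in 5 cell classes (column blocks) of the 48 hpf, 72 hpf and control MO 48 hpf (MO) libraries; rows are genes, by co-expression group and then by rank of the ratio. The 72 hpf column is the brightest of its block for most genes in other and high-ARS cells; the gut and skeletogenic columns at 72 hpf rest on 15 and 40 cells, and the LOC763085 row itself is brightest in pigment cells, at 2456 CPM.

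The rise was then computed without the change in the shares of these marker-defined classes. With the class shares of UMIs held at those of 48 hpf, the median ratio was 6.53 and the lowest 3.71, and all 150 genes stayed at 2-fold or more. Holding class shares does not undo moves of cells across a fixed marker threshold, such as from high-ARS to other. The part of such moves in the rise within other cells was not tested. Other cells may still have changed in their own mix, and in summed libraries more cells of a type and more RNA per cell cannot be told apart.

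How widely the genes were found was measured after each cell was thinned to 500 UMIs, which left out no cell. The median gene had a UMI in 0.193% of cells at 48 hpf, 1.67% at 72 hpf and 0.150% with the control MO. At 72 hpf 12 genes were found in at least 10% of cells, 89 in 1% to 10% and 49 in under 1%. At 48 hpf the same counts were 1, 19 and 130.

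The widest gene was LOC753847, in 6.32% of cells at 48 hpf and 41.2% at 72 hpf (interval 40.1 to 42.4%). LOC577731 rose from 9.52% to 38.7% of cells, LOC100892690 from 6.15% to 37.4% and LOC579510 from 10.4% to 34.7%. LOC579576 went from 0.174% to 17.5% (interval 16.6 to 18.4%), and was found in 24.7% of high-ARS and 12.8% of other cells at 72 hpf. With the control MO it was in 0.301% of cells.

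At the narrow end, the 67 cells (1%) with the most UMIs of a gene held at least 90% of its 72 hpf UMIs for 22 of the 150 genes, and at least 50% for 56. Among the 6146 genes with at least 180 UMIs at 72 hpf, the lowest number in the list, 55 (0.895%) had at least 90% there. The median was 39.3% for the 150 genes and 23.1% for the 6146. When each gene was summed without its highest 1% of cells in each library, 85 of the 150 had no UMI left at 48 hpf, as follows from being found in so few cells there. Of these 85, 75 still had UMIs at 72 hpf and 10, gpa2 among them, had none. The ratios left by this step are therefore not a measure of breadth.

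LOC753460 rested on 1 cell. All of its 265 UMIs at 72 hpf were in a single other cell, and without that cell its ratio went from 11.6 to 0.687. Without each gene's highest cell the other 149 remained at 2-fold or more. LOC592639, with 446 UMIs at 72 hpf, had up to 112 in 1 cell. It was in 0.195% of thinned 72 hpf cells, and 193 of its UMIs lay in the 15 gut cells.

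**Figure D3:**
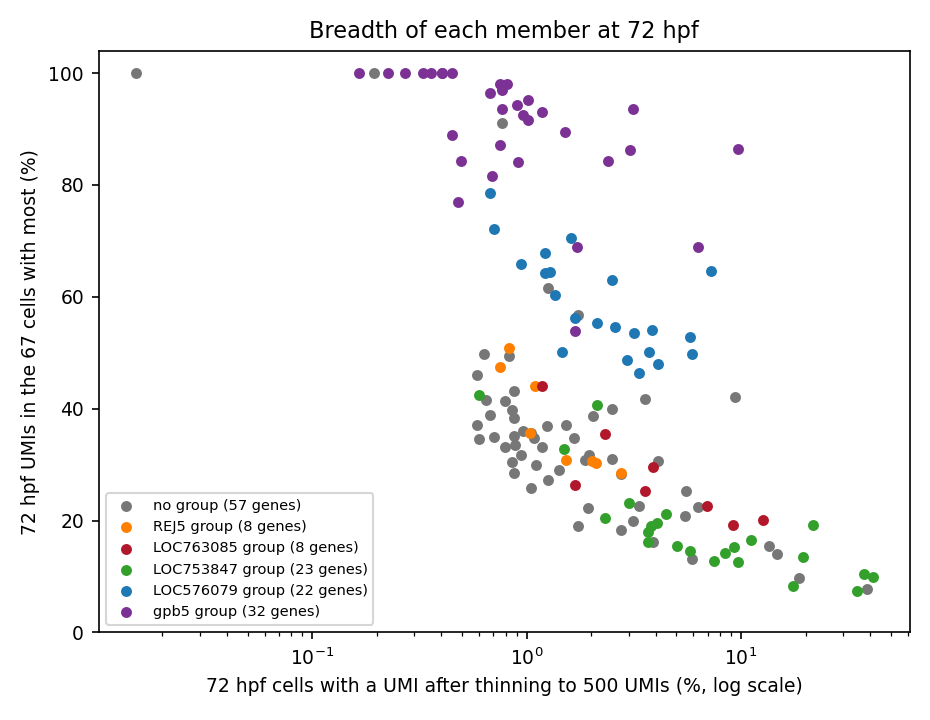
Breadth of each of the 150 genes at 72 hpf: share of cells with a UMI after thinning to 500 UMIs per cell (x axis, log scale) against the share of the gene's UMIs in the 67 cells that had most of it (y axis). Each point is a gene, coloured by co-expression group; the gpb5 group lies at the top between 53.9 and 100%, and the LOC753847 group at the lower right between 7.40 and 42.5%.

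To see which genes rose in the same cells, the 150 were grouped by the correlation of their log-normalized levels over the 6666 cells at 72 hpf (average linkage, height 0.9). This gave 5 groups of at least 8 genes, with 93 genes in all, and 57 genes outside them. Each group is called by a gene in it. Correlations were low, with a mean within groups of 0.115 to 0.440. How far sparse counts lowered them was not tested. The groups were formed on the 72 hpf cells, so how tightly they hold there is no finding. Both 48 hpf libraries took no part in the grouping. There the mean correlation within groups was lower, at 0.0175 to 0.185 in the uninjected library and 0.0103 to 0.0888 with the control MO.

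The LOC753847 group, 23 genes, was that of the high-ARS cells. Its summed level was 1096 CPM at 48 hpf, 8469 CPM at 72 hpf and 875 CPM with the control MO. At 72 hpf high-ARS cells held 76.9% of its UMIs, at 14460 CPM, against 3652 CPM in other and 2827 CPM in pigment cells. High-ARS cells had also held 82.6% of the group's UMIs at 48 hpf and 69.2% with the control MO, so most of the group's UMIs lay in this class in all libraries. High-ARS cells gave the largest part of the gain for all 23 genes.

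LOC100893488 was at 132 CPM in high-ARS cells at 48 hpf, 1414 CPM at 72 hpf and 118 CPM with the control MO. LOC105439848 was in 9.47% of thinned high-ARS cells at 48 hpf and in 34.7% at 72 hpf. LOC100889865 was higher in gut than in high-ARS cells in every library. It was at 142 CPM in gut cells at 48 hpf and 145 CPM in gut cells with the control MO, when high-ARS cells were at 15.95 and 10.9 CPM, and at 72 hpf it was at 893.7 CPM (27 UMIs) in gut cells and 409 CPM in high-ARS cells. The 67 cells richest in the group also had spec2d, an aboral ectoderm calcium-binding protein, at 1412 CPM against 363 CPM in the remaining cells, and BMP2/4, the ligand of dorsal-ventral patterning, at 191 against 90.8 CPM.

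The gpb5 group, with 32 genes, was the largest, and its median gene was the narrowest of the groups. Its summed level went from 350.3 CPM at 48 hpf to 3272 CPM at 72 hpf and was 153.8 CPM with the control MO. At 72 hpf other cells held 94.3% of its UMIs. Its median gene was in 0.765% of thinned cells and had 93.4% of its UMIs in 67 cells. Cells with at least 3 thinned UMIs of the group made up 1.10% of cells at 48 hpf (57 cells, interval 0.836 to 1.43%), 4.22% at 72 hpf (281 cells, 3.75 to 4.73%) and 0.542% with the control MO (18 cells, 0.321 to 0.855%).

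Both thyrostimulin subunits were in this group. The subunit gene gpb5 was at 3.97 CPM at 48 hpf, 46.2 CPM at 72 hpf and 0.322 CPM with the control MO. The listed gpa2 gene (gene12247) was at 0.585, 20.1 and 0.107 CPM. Other cells held 645 of the 674 gpb5 UMIs and 281 of the 294 gpa2 UMIs at 72 hpf. A further gpa2 locus (gene12249), with 109 UMIs over both libraries too few to enter, was at 1.82, 5.55 and 1.83 CPM. Whether reads were split between the gpa2 loci was not tested, so the single gpa2 values are uncertain.

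The 67 cells richest in the gpb5 group had at least 4.99% of their UMIs in it and a median of 3913 UMIs, against 1487 in the library. They had the further gpa2 at 267 CPM against 0.906 CPM in the remaining cells, gnrhr1 at 86.5 against 0.348 CPM (22 UMIs) and SNAP-25 (gene27388), a membrane fusion protein of vesicle release, at 149 against 19.1 CPM. SpP19L was at 1141 against 30.9 CPM and isg12 at 794 against 32.9 CPM. Gp96 was at 193 against 17.2 CPM, Elk at 433 against 55.2 CPM and eif4a at 342 against 54.6 CPM. What type of cell these are was not tested. Whether their depth reflects doublets was not tested: the doublet caller marked 2 cells at 48 hpf and 0 at 72 hpf and so had not worked.

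The most abundant gene of the group, LOC752246, had up to 1729 UMIs in 1 cell and 86.4% of its UMIs in 67 cells. It was at 1722 CPM in other cells at 72 hpf and at 96.6 CPM in high-ARS, 198 CPM in pigment and 399 CPM in skeletogenic cells. A UMI of it was in 5.96% of thinned high-ARS cells at 72 hpf and in 0.328% at 48 hpf. LOC100890091 was at 897 CPM in other and 35.0 CPM in high-ARS cells. The part of free RNA in these lower levels was not tested. In skeletogenic cells these genes led the 21 measured there, with ratios of 53.5 and 40.2 on 32 and 24 UMIs at 72 hpf. LOC100893488 (32.0), LOC100892690 (27.6) and LOC753847 (27.4), all of the LOC753847 group, came next.

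The LOC576079 group, 22 genes with prox1 among them, was also one of other cells, which held 93.1% of its UMIs at 72 hpf. Its summed level was 205 CPM at 48 hpf, 2239 CPM at 72 hpf and 166 CPM with the control MO. Cells with at least 3 thinned UMIs of the group were 0.677% at 48 hpf (35 cells), 5.63% at 72 hpf (375 cells, interval 5.08 to 6.21%) and 0.512% with the control MO (17 cells). Of the 375 cells, 355 were other cells. The group held 5 of the 15 steepest genes in the list after LOC576079 itself: LOC576549, LOC591003, LOC756286, LOC577387 and LOC578199.

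The 67 cells richest in this group had high levels of genes of synaptic vesicle release. SNAP-25 (gene27388) was at 423 CPM in them against 17.3 CPM in the remaining cells, rab3 at 1571 against 140.0 CPM, VAMP at 4302 against 571 CPM, NSF at 738 against 95.4 CPM and sec1 at 143 against 12.6 CPM. The Notch ligand delta was at 751 against 35.5 CPM and the transcription factor hnf6, known from the ciliary band, at 1448 against 185.3 CPM. These companions were named after their values were seen.

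The LOC763085 group, 8 genes, was the one with most UMIs in pigment cells, which gave the largest part of the gain for 5 of the 8. Its summed level in pigment cells was 557 CPM at 48 hpf, 5861 CPM at 72 hpf and 699 CPM with the control MO, and pigment cells held 46.5%, 49.6% and 56.3% of its UMIs. LOC763085 was at 52.7 CPM in pigment cells at 48 hpf, 2456 CPM at 72 hpf and 75.2 CPM with the control MO, and after thinning it was in 64.8% of pigment cells at 72 hpf against 3.09% of high-ARS and 8.89% of other cells. LOC100890834 was at 11.7, 544 and 8.85 CPM in pigment cells.

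LOC591533 and LOC592959 were already pigment cell genes at 48 hpf. LOC591533 was at 305 CPM in pigment cells at 48 hpf, 1140 CPM at 72 hpf and 246 CPM with the control MO, and LOC592959 at 135, 469 and 327 CPM. In high-ARS cells neither passed 22 CPM in any of the libraries. LOC578453 was not confined to pigment cells: it went from 15.6 to 753 CPM there and from 47.1 to 226 CPM in other cells. The 67 cells richest in the group had gcm, the transcription factor that specifies pigment cells, at 402 CPM against 36.4 CPM in the remaining cells. Of the 512 cells with at least 3 thinned UMIs of the group at 72 hpf, 365 were pigment and 140 other cells. Whether the 140 include pigment cells below the marker threshold was not tested.

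The REJ5 group, 8 genes, was low and scattered over other cells. Its summed level was 35.8 CPM at 48 hpf, 248 CPM at 72 hpf and 19.2 CPM with the control MO, and other cells held 88.1% of its UMIs at 72 hpf. REJ5 was at 1.89, 34.9 and 0.644 CPM in the same order. Cells with at least 3 thinned UMIs of the group numbered 27 of 6666 at 72 hpf, all of them other cells, and 0 in both 48 hpf libraries. A count of 0 among 5170 cells allows a share of up to 0.0580%, and among 3323 cells of up to 0.0903%.

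REJ proteins resemble polycystin-1, and pkd2 encodes the channel polycystin-2. The 49 cells richest in the REJ5 group had REJ9 at 990.1 CPM against 157 CPM in the remaining cells and pkd2 at 1198 against 217 CPM. Neither is among the 150 genes, but REJ9 was at 47.2 CPM at 48 hpf, 160.3 CPM at 72 hpf and 9.13 CPM with the control MO, and pkd2 at 88.3, 221 and 62.1 CPM. Of the family, REJ8 was at 38.2, 54.0 and 19.9 CPM. The other REJ symbols in the tables had too few UMIs to enter. The apical plate transcription factor NK2.1 was at 479 CPM in the 49 cells against 67.2 CPM. Over all cells NK2.1 went from 145 CPM at 48 hpf to 69.0 CPM at 72 hpf. The 49 cells also had hnf6 at 543 against 196 CPM and FoxG at 287 against 95.1 CPM. To which territory these cells belong was not tested.

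**Figure D4:**
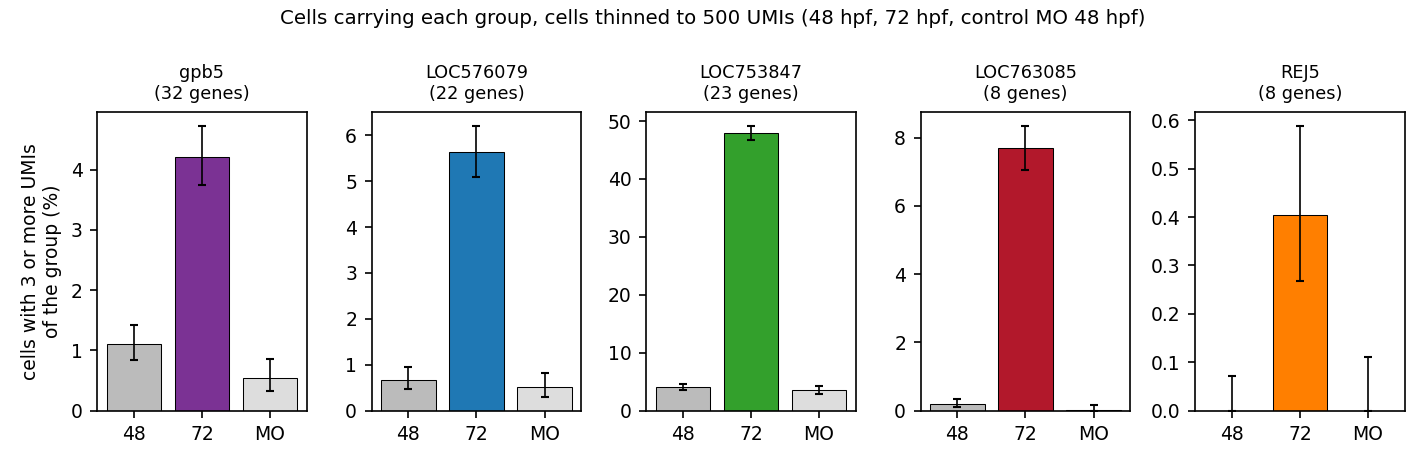
Share of cells (y axis, %) with at least 3 UMIs of each co-expression group after thinning to 500 UMIs per cell, in the 48 hpf, 72 hpf and control MO 48 hpf (MO) libraries; bars are shares, error bars exact Clopper-Pearson 95% intervals for counting error, and the y axes differ. Each group's 72 hpf bar is the highest of its panel, from 0.405% of cells for REJ5 to 48.0% for LOC753847.

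For the 57 genes outside the groups, other cells gave the largest part of the gain for 40 and high-ARS cells for 17. LOC577731, the most abundant, was at 118 CPM in high-ARS cells at 48 hpf and 904 CPM at 72 hpf, and at 439 and 1497 CPM in other cells. LOC105442352 was at 20.9 CPM at 48 hpf, 281 CPM at 72 hpf and 7.51 CPM with the control MO, with 86.0% of its gain in other cells.

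In skeletogenic cells 5 of the 21 measured genes were below 2-fold. LOC105436740 was at 797 CPM there at 48 hpf, 237 CPM at 72 hpf and 657 CPM with the control MO, while in other cells it was at 18.9, 221 and 15.8 CPM. LOC577598 was at 1166, 536 and 825 CPM in skeletogenic cells and at 67.2, 479 and 23.4 CPM in other cells. The prox1 gene was at 314, 225 and 274 CPM in skeletogenic cells and at 17.5, 274 and 8.61 CPM in other cells. For these 3 genes both 48 hpf libraries had their highest level in skeletogenic cells, and the rise from 48 to 72 hpf lay in other cells. The 72 hpf skeletogenic values rest on 19, 43 and 18 UMIs in 40 cells. LOC755141 (1.17-fold) and LOC575148 (0.964-fold) completed the 5. LOC579576, second by ratio over all cells, also had its highest level in skeletogenic cells in both 48 hpf libraries. There it was at 90.7 CPM at 48 hpf (28 of its 59 UMIs) and 187 CPM with the control MO (60 of 103). At 72 hpf it was at 224.5 CPM in skeletogenic cells (18 UMIs), a ratio of 2.46.

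In gut cells 3 of the 10 measured genes were below 2-fold. LOC593656 was at 161 CPM at 48 hpf and 289.6 CPM with the control MO in gut cells, and at 99.3 CPM (3 UMIs) at 72 hpf. LOC575348 was at 112 and 184 CPM and at 33.1 CPM (1 UMI), and LOC575148 at 221 and 115 CPM and at 397 CPM (12 UMIs). The gut ratio of LOC592639, at 155, was the highest, with 40.3 CPM at 48 hpf, 6388 CPM at 72 hpf and 44.6 CPM with the control MO. After thinning, a UMI of it was in 20% of the 15 gut cells at 72 hpf, so this level came from few cells. The next gut ratios were those of LOC753847 (6.28) and LOC100889865 (6.25), then LOC105442352 (3.07) and LOC579510 (2.95). Gut markers and gut cells were fewer at 72 hpf, so these values have little depth.

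The control MO library took no part in the choice of genes, although its ratios to the uninjected libraries share their values. The median ratio of control MO to 48 hpf was 0.822 for the 150 genes and 0.983 for all 8459. It was within 2-fold for 102 of the 150, 2-fold or more higher for 18 (all genes 7.71%) and 2-fold or more lower for 30 (all genes 8.71%). Both are larger shares than over all genes, so the 150 genes lay within 2-fold less often than all genes did. This comparison was not matched for level: 15 of the 150 had under 10 UMIs at 48 hpf and 41 with the control MO. How far small counts widened the spread was not tested. The 72 hpf level was 2-fold or more above the control MO level for 145 of the 150 (all genes 14.9%), with a median ratio of 9.58.

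The 5 exceptions were LOC755141, LOC588420, LOC756953, LOC593157 and LOC581034. LOC581034 was the only gene higher with the control MO than at 72 hpf: it was at 16.5 CPM at 48 hpf, 92.0 CPM at 72 hpf and 377 CPM with the control MO, in 0.890%, 3.57% and 15.2% of thinned cells. With the control MO it was at 429 CPM in pigment, 246 in gut, 703 in skeletogenic, 333.4 in high-ARS and 412 in other cells, so that every class was above its uninjected 48 hpf level, which ranged from 11.7 to 58.3 CPM. LOC586014 (5.57-fold), LOC755141 (4.23-fold), LOC593157 (3.97-fold) and LOC588420 (3.86-fold) came next. LOC755141 was at 227 CPM in skeletogenic cells with the control MO and at 74.5 CPM there at 48 hpf.

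The genes lower with the control MO came mostly from the gpb5 group, with 19 of the 30. LOC752246 was at 49.0 CPM at 48 hpf and 3.22 CPM with the control MO, a CPM ratio with an interval of 0.0440 to 0.0946. LOC100890091 was at 42.0 and 5.05 CPM and LOC753482 at 6.24 and 0.107 CPM. LOC753211 was at 5.202 CPM and had 0 of the 9314829 control MO UMIs, and LOC105446297 at 5.46 and 0.322 CPM. The group as a whole was at 350.3 CPM at 48 hpf (interval 341 to 359.8) and 153.8 CPM (146 to 162) with the control MO. Other cells held 83.2% of its UMIs in the uninjected library and 50.3% with the control MO, where gut cells held 21.4% and skeletogenic cells 20.03%. A pair of its genes carried this, since LOC593656 had 279 of the 307 control MO UMIs in gut cells and LOC577598 had 265 of the 287 in skeletogenic cells. Without them, in an alternative chosen after seeing the data, other cells held 90.2% of the group's UMIs at 48 hpf and 79.9% with the control MO, and the group was at 275 CPM at 48 hpf and 74.1 CPM with the control MO. Injection, enrichment of the ectoderm and lane cannot be told apart here.

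**Figure D5:**
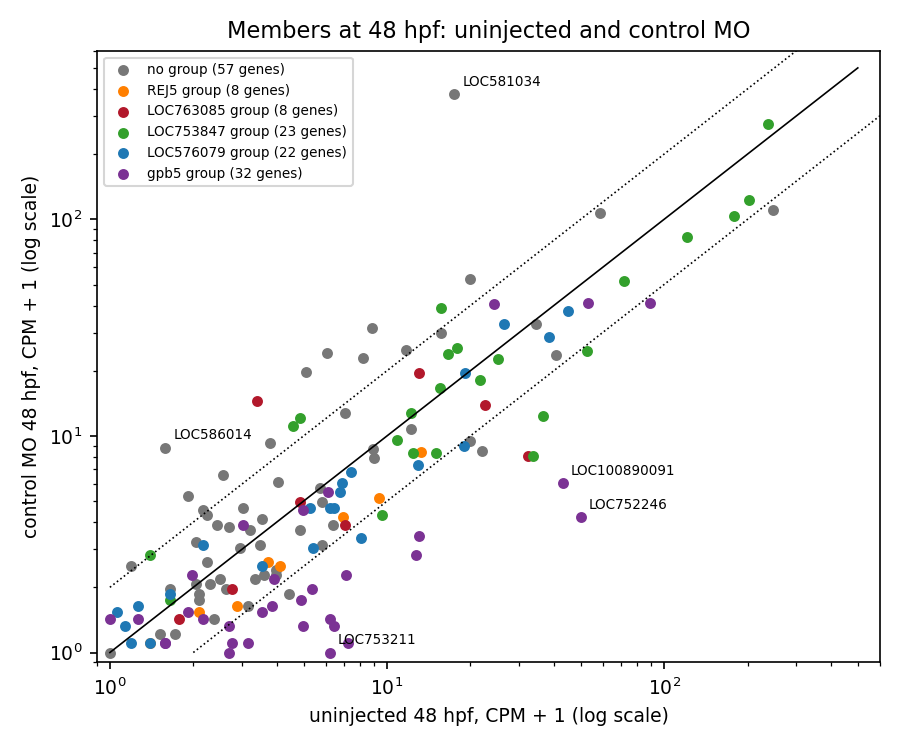
Level of the 150 genes at 48 hpf in the uninjected library (x axis) and in the control MO library (y axis), as CPM + 1 on log scales. The solid line marks equal levels and the dotted lines 2-fold differences; 18 genes lie on or above the upper and 30 on or below the lower dotted line, most of these of the gpb5 group, and LOC581034 stands alone at 377 CPM.

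The genes were also closer to each other in the gene numbers of the count tables than other genes were to them. Of the 150, 15 (10%) had another of the 150 at a directly neighbouring number, against 82 of the other 8309 genes (0.987%). They included gpb5, gpa2 and LOC593656, which follow each other, and LOC752016 with LOC105444880, all 5 in the gpb5 group. LOC587480 and LOC579255 were both in the LOC753847 group, and LOC575148 and LOC105441784 both in the LOC576079 group. LOC105439848 and LOC587016 were also a pair of the LOC753847 group, whereas LOC581656 and LOC581717 were in different groups. Whether neighbours shared reads was not tested.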

How the data were processed

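Single cells of uninjected 48 hpf and 72 hpf embryos and of control MO gastrulae were captured in droplets, and the authors made UMI counts with Cell Ranger on assembly Spur_4.2. The deposited counts, per gene and cell, were not normalized. The gcm MO library was not used. Cells with 400 to 2500 genes were kept, counts were summed per library or class, and CPM ratios were computed with 1 CPM added in Python 3.11.15 with scipy 1.17.1, numpy 2.4.6 and pandas 2.3.3, and Scrublet was run through scanpy 1.11.5. Poisson, Clopper-Pearson and conditional binomial intervals are exact at 95%, and a count of 0 was given a limit of 3 counts. With 1 library per condition no test was possible and cells are not replicates. The calculation was tested on simulated data.

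The genes and lists were chosen with earlier results of these data known. Class thresholds, co-expression groups, the companion genes, the REJ family and the small sets were chosen after values were seen. Genes named are the 15 highest ratios, the 5 highest levels at 72 hpf, the 5 highest ratios per class, the 5 raised in most classes, the 5 highest and 5 lowest control MO ratios and 3 on each side of the rank limit, with further members that the groups or exceptions turn on, named after their values were seen. The planned gene lists rested on product names, which the RefSeq table (Spur_5.0) used here does not hold, and by symbol they matched 8 eligible genes and 0 of the 150, so they were not used. No sequences were used here.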

Additional observations from a re-analysis of the deposited data

How the results depend on the processing

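Of 82 alternative values, 68 stayed near the reported one. Near meant within a set factor for a count and within the interval for a ratio or share. No median ratio changed direction, which a count could not do by its definition. Single genes did: LOC753460 was at 0.687 without its highest cell, and LOC581034 at 0.246 with 72 hpf set over the control MO. The 68 include the class counts without Scrublet calls, which removed only 2 and 0 cells. They also include lists that kept 108 of the 150 genes with 10 CPM added and 107 without each gene's highest 1% of cells. The list itself depended on its limits: of the 150 genes, 99 were chosen again with a minimum of 50 UMIs, 90 with 500 UMIs (by construction, since only 90 reach it) and 99 with 72 hpf set over the control MO. The median ratio was 3.40 with 10 CPM added, 9.58 over the control MO and, in an alternative chosen after seeing the data, 9.24 without each gene's highest 1% of cells, which by construction left 85 genes with no UMI at 48 hpf. The skeletogenic count of 16 was 36 with class thresholds halved and 8 with a minimum of 40 UMIs, the pigment count of 73 was 48 with that minimum, and the gut count of 7 was 3 with it and 4 at 3-fold. The median share of cells was 0.793% at 48 hpf and 4.54% at 72 hpf without thinning, and 2.67% at 72 hpf with thinning to 1000 UMIs, which left out 2270 of its cells. The cause of these shifts was otherwise not tested. Size factors moved the median log2 ratio of all genes from -0.08 to 0.00. No paired analysis was possible because each condition has 1 library. The small gut and skeletogenic classes and the shallow 72 hpf cells limit depth.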

Other observations

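The vesicle genes that marked the same cells as the LOC576079 group are not among the 150 genes, so their ratios were bound to be lower than the group's by the rule that chose it, and only their own values are given. Between 48 and 72 hpf rab3 went from 176 to 154.4 CPM, a CPM ratio of 0.878 (interval 0.830 to 0.929), sec1 from 13.3 to 13.9 CPM (ratio 1.04, interval 0.855 to 1.27), VAMP from 515 to 609 CPM (ratio 1.18) and NSF from 69.5 to 102 CPM (ratio 1.47). The SNAP-25 locus named above went from 10.9 to 21.4 CPM (ratio 1.97, interval 1.63 to 2.39) and its other locus (gene4101) from 9.62 to 9.86 CPM. These genes were chosen after their values were seen and had UMIs outside those cells too.

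LOC105441936, LOC756953 and LOC593157 were grouped with LOC581034 over the 72 hpf cells, in a set below the size taken as a group. LOC756953 was at 7.80 CPM at 48 hpf, 54.1 CPM at 72 hpf and 30.5 CPM with the control MO. LOC593157 was at 5.07, 31.8 and 23.1 CPM and LOC105441936 at 6.05, 72.3 and 11.8 CPM. All 4 were above the uninjected 48 hpf level with the control MO, by 1.82- to 21.6-fold.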
